A study of Homo sapiens with 8 samples.

Results

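The SP100 family genes SP110, SP140, SP140L and SP100, together with PML, were followed across senescence and knockdown of the m6A methyltransferases METTL3 and METTL14. These 5 genes were found by their symbols among 27945 counted genes, and all 5 passed the filter on low counts that left 12844 genes for testing. The set was chosen by the rise of SP140 read counts after METTL3 knockdown. Every value of these 5 genes that uses the shMETTL3 libraries is therefore given as a description without a test.

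PML is the scaffold of PML nuclear bodies, small nuclear structures that gather SUMO-modified proteins, and SP100 is a constant component of them. SP100, SP110, SP140 and SP140L descend from a common ancestor and lie side by side on the long arm of chromosome 2. Their proteins carry an N-terminal oligomerization domain, and many isoforms also carry a DNA-binding SAND domain and a PHD finger with a bromodomain, modules that read chromatin. The family and PML are known as interferon-inducible genes, and SP140 is known mainly from lymphoid and myeloid cells. PML and its bodies are also known from RAS-induced senescence of fibroblasts.

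Nascent RNA had been measured by fastGRO-seq, in which RNA polymerases in isolated nuclei extend their transcripts with a labeled nucleotide, so that reads report ongoing transcription and not stored mRNA. The cells were IMR90, primary human embryonic lung fibroblasts that carried ER:RAS, an oncogenic H-RAS fused to the estrogen receptor and switched on by 4-hydroxytamoxifen (4-OHT). Control cells were labeled wild type without an shRNA. The other groups received 100 nM 4-OHT, were harvested on day 6 as senescent cells and carried a lentiviral shControl, shMETTL3 or shMETTL14, with 1 hairpin per target. Differences between shControl and control cells thus join senescence with shRNA infection, and these cannot be told apart. Each of the 4 groups had 2 libraries.

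METTL3 had 80 and 78 reads in control, 77 and 47 in shControl, 16 and 19 in shMETTL3 and 73 and 56 in shMETTL14 libraries, and METTL14 had 60 and 55, 24 and 28, 41 and 48, and 18 and 14. Each targeted gene was lowest in the libraries that carried its own hairpin. Its fall from shControl was 2.04 ± 0.31 (log2, SE) for METTL3 (edgeR adjusted p = 1.8e-05) and 0.86 ± 0.34 for METTL14, which did not pass (edgeR adjusted p = 0.076). Library totals were 14897360 to 20306299 reads, of which 86.2% to 92.5% lay in ribosomal RNA rows, so 1513930 to 2048475 reads per library stood for all other genes. All 10 fibroblast markers passed the filter, and their summed counts were 35886 to 37627 in control, 18646 to 21264 in shControl, 26779 to 28855 in shMETTL3 and 14547 to 16272 in shMETTL14 libraries. None of 12 leukocyte markers passed it. Their summed counts were 9 to 10, 11 to 14, 12 to 14 and 7 to 8 in the same order, with CD3E and MS4A1 among those at 0 in every library. Of 6 epithelial markers 2 passed, with sums of 54 to 58, 26 to 46, 23 and 58 to 77, and of 5 endothelial markers 1 passed, with sums of 115 to 133, 43 to 52, 55 to 75 and 16 to 29. The part of the fibroblast, epithelial and endothelial differences in the results was not tested.

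In the hg19 build used for the counts, SP110 (NM_080424) spans chr2:231033645-231084827 on the minus strand. SP140 (NM_001278451) spans chr2:231090445-231177930, SP140L (NM_001308163) chr2:231191886-231268447 and SP100 (NM_001080391) chr2:231280871-231410317, all on the plus strand. Gaps of 5617, 13955 and 12423 bases separate these spans. PML (NM_033238) lies apart, at chr15:74287014-74340155 on the plus strand. The counted spans run from first to last base of each gene, and exons make up between 5.74% of the span for SP140 and 23.8% for PML, so most of the counted sequence is intronic.

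The start sites are shown because the members sit next to each other and share sequence there. RefSeq promoters of 300 bases were found for 4 of the 5 members, and their sequences were matched exactly to GRCh37. SP110 and SP140 are read away from each other, since the upstream start of SP110 lies 100 bases from the start of SP140, and their promoters have 199 bases in common. The counted SP110 span begins near the other SP110 start and 5524 bases from the upstream one. The promoter of SP140 (250 bases before to 50 after the RefSeq start, plus strand, GRCh37 chr2:231090201-231090500) is printed with a 16-base run in capitals that recurs at its relatives.
SP140 promoter: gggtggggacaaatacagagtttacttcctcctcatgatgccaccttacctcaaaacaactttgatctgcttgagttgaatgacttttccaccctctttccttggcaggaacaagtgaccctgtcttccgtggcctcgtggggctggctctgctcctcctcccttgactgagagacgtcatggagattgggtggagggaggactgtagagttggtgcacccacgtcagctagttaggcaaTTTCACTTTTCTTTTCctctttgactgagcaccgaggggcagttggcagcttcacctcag

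The run read TTTCACTTNTCTTTTC, where N is any base. It is the longest run that the promoters nearest to the counted starts of the 4 genes had in common with at most 1 varying base, and the search for it was made after these sequences had been seen. Counting both strands, it occurred in 5 of 35116 promoters (0.0142%), and those 5 belonged to SP110, SP140, SP140L and SP100. The stretches of 40 bases around it follow, with the run in capitals. The entry for SP110 start 1 is the same DNA as that of SP140, read on the other strand.
SP140, chr2:231090441-231090456: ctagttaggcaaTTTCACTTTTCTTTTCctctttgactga
SP110 start 1, the same position: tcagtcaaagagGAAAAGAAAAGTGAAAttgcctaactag
SP110 start 2, chr2:231084735-231084750: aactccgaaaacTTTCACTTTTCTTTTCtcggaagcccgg
SP140L, chr2:231191821-231191836: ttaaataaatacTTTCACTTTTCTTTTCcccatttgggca
SP100 start 1, chr2:231280852-231280867: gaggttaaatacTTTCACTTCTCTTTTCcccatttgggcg
The second SP100 promoter did not contain the run. The promoters of SP140L and SP100 start 1 were identical at 251 of 272 aligned bases (92.3%), which includes the bases on both sides of the run. Other motifs were also searched on both strands, and overlaps between them were allowed. GAAANNGAAA, the core of the interferon-stimulated response element, stood in 3.57% of all promoters (1195 of 27305 genes) and in 0 of the 4 family genes. The shared run, read on the other strand, holds GAAA words at other distances, which this search does not count. GGAANNGAAA, a composite of ETS and IRF half-sites, stood in 2.82% of promoters (947 genes) and in 3 family genes. The STAT motif TTCNNNGAA stood in 7.66% of promoters (2560 genes) and in 1 family gene. A match describes letters only, and no factor was measured at these sites.

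SP140 was the member whose nascent transcription spanned the widest range as a fold. The control libraries held 6 and 9 SP140 reads, the shControl libraries 25 and 33, the shMETTL3 libraries 190 and 263, and the shMETTL14 libraries 190 and 175. Scaled for library size and composition by TMM, the normalized counts were 5.31 and 7.84 in control, 29.6 and 36.7 in shControl, 195 and 250 in shMETTL3, and 190 and 184 in shMETTL14 libraries. Both control libraries were lowest, both shControl libraries intermediate, and all 4 knockdown libraries were high, with shMETTL14 just below shMETTL3. In such bulk samples, a change in all cells and a change in the share of cells that transcribe a gene cannot be told apart, and neither can fewer cells of a type and less RNA per cell.

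The rise of SP140 with senescence was 4.97-fold (log2 fold change 2.31 ± 0.38, SE, edgeR adjusted p = 2.6e-05). METTL14 knockdown raised it a further 5.61-fold above shControl (2.49 ± 0.22, edgeR adjusted p = 3.5e-09), which placed it 27.9-fold above control cells (4.80 ± 0.28, edgeR adjusted p = 1.3e-13). The control libraries held 6 and 9 SP140 reads, fewer than the minimum count of 10. SP140 thus entered the tests through the senescent libraries, and was removed when 10 counts were required in every library. The folds and p-values against control therefore rest on a group near the floor, and the size of these folds is uncertain. The comparisons of shControl with control and of shMETTL14 with shControl share the shControl libraries with the comparison by which SP140 was chosen. Neither is therefore independent of that choice. Among 12844 genes ordered by log2 fold change, SP140 was number 342 from the top in senescence and number 80 after METTL14 knockdown. With shMETTL3 the difference from shControl was 2.74 ± 0.21, number 31 from the top, and that from control was 5.05 ± 0.27. Between the knockdowns the log2 difference, shMETTL14 minus shMETTL3, was -0.25 ± 0.16. Nothing in the labels says that replicates came from separate cultures, although the methods speak of independent experiments, so the p-values measure the spread between these libraries.

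**Figure D1:**
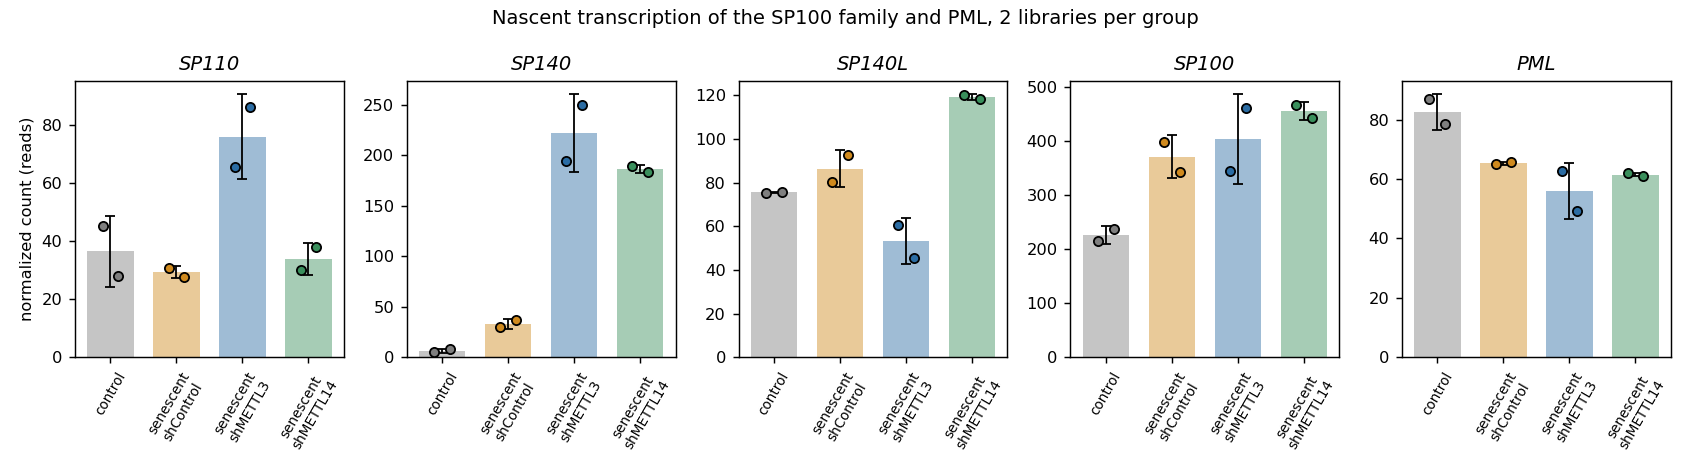
Normalized read counts of the 5 genes (vertical axes, 1 scale per gene, from 0) in control, senescent shControl, senescent shMETTL3 and senescent shMETTL14 cells. Points are the 2 libraries of a group, bars their mean and error bars the SD; SP140 stands at 5.31 and 7.84 in control and at 184 to 250 in the 4 knockdown libraries.

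SP110, the neighbor of SP140 on the opposite strand, had few reads, with 51 and 32 in control, 26 and 25 in shControl, 64 and 91 in shMETTL3 and 30 and 36 in shMETTL14 libraries. Its normalized counts were 45.2 and 27.9, 30.7 and 27.8, 65.7 and 86.4, and 30 and 37.9 in that order. Only the shMETTL3 libraries lay above the range of the others, and the remaining groups overlapped. SP110 did not pass the test in senescence (-0.32 ± 0.31, edgeR adjusted p = 0.50) or after METTL14 knockdown (0.21 ± 0.32 against shControl, edgeR adjusted p = 0.70). The 95% interval of the latter difference, -0.45 to 0.87 on the log2 scale, lay below the SP140 value of 2.49. With shMETTL3, SP110 differed from shControl by 1.38 ± 0.29 and from control by 1.06 ± 0.26. Annotated genes on the opposite strand, among them a longer form of SP140, cover 43.6% of the SP110 span. The counting command named a strand, yet in 60 of 61 pairs of genes nested on opposite strands the outer gene was not below the inner gene in any library. SP110 values may therefore include reads of SP140, and the part of such reads was not tested.

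SP140L, a shorter relative that arose by duplication, had 85 and 87 reads in control, 68 and 83 in shControl, 59 and 48 in shMETTL3 and 120 and 112 in shMETTL14 libraries. Its normalized counts were 75.3 and 75.8, 80.4 and 92.4, 60.5 and 45.6, and 120 and 118. On this scale no groups overlapped, and the order of the knockdowns was the reverse of that for SP110, with shMETTL14 highest and shMETTL3 lowest. SP140L did not pass in senescence (0.20 ± 0.20, edgeR adjusted p = 0.52) or in shMETTL14 against shControl (0.46 ± 0.19, edgeR adjusted p = 0.093). In the latter it passed when scaled by library size alone (0.81, edgeR adjusted p = 0.0047). It rose 1.57-fold in shMETTL14 relative to control cells (0.65 ± 0.19, edgeR adjusted p = 0.0070), a call that was lost with DESeq2 (0.67, adjusted p = 0.086) and with scaling by library size alone (0.51, edgeR adjusted p = 0.067). With shMETTL3 it differed from shControl by -0.71 ± 0.21 and from control by -0.51 ± 0.21. With library size alone, the difference from shControl was -0.10 ± 0.25 and the libraries overlapped, at 3.76 and 3.22 SP140L CPM with shMETTL3 against 3.35 and 4.15 with shControl. Between the knockdowns, shMETTL14 minus shMETTL3 was 1.17 ± 0.20 for SP140L and -1.17 ± 0.27 for SP110.

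SP140 and SP140L are near copies in places, so reads could be split between them. Of the 50-base words in the SP140 span, 2.37% also occur in SP140L, and 2.71% of those in SP140L occur in SP140. The part of such reads in their values was not tested. No annotated gene on the opposite strand overlaps either of them.

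SP100 was the most transcribed member, with 243 and 273 reads in control, 337 and 308 in shControl, 335 and 486 in shMETTL3 and 467 and 420 in shMETTL14 libraries. Normalized counts were 215 and 238, 398 and 343, 344 and 461, and 467 and 442. Every senescent library was above both control libraries, and the shMETTL3 libraries spread across the range of the other senescent groups. SP100 rose 1.63-fold in senescence (0.71 ± 0.15, edgeR adjusted p = 0.00085) and was 2.01-fold above control with shMETTL14 (1.00 ± 0.15, edgeR adjusted p = 5.2e-06). From shControl to shMETTL14 it did not pass (0.30 ± 0.15, edgeR adjusted p = 0.16), with a 95% interval of -0.01 to 0.60 on the log2 scale. With shMETTL3 the values were 0.12 ± 0.15 against shControl and 0.83 ± 0.15 against control. Scaling by library size alone moved the median of all genes to -0.53 in senescence and to 0.35 after METTL14 knockdown. Under it SP100 no longer passed in senescence (0.21, edgeR adjusted p = 0.36) and passed after METTL14 knockdown (0.65, edgeR adjusted p = 0.0037).

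PML, the body's scaffold, had 98 and 90 reads in control, 55 and 59 in shControl, 61 and 52 in shMETTL3 and 62 and 58 in shMETTL14 libraries. Its normalized counts were 86.8 and 78.4, 65.0 and 65.7, 62.6 and 49.4, and 62.0 and 61.1. The control libraries were highest and the 6 senescent libraries lay between 49.4 and 65.7. PML did not pass in any of the tested comparisons, with log2 values of -0.34 ± 0.21 in senescence (edgeR adjusted p = 0.26), -0.09 ± 0.22 for shMETTL14 against shControl (edgeR adjusted p = 0.83) and -0.42 ± 0.21 for shMETTL14 against control (edgeR adjusted p = 0.11). Scaled by library size alone, the senescence value was -0.83 and passed (edgeR adjusted p = 0.0039). With shMETTL3 the differences were -0.23 ± 0.23 from shControl and -0.56 ± 0.21 from control. The span of PML has an annotated opposite-strand gene over 5.91% of its length, and that of SP100 over 19.3%.

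**Figure D2:**
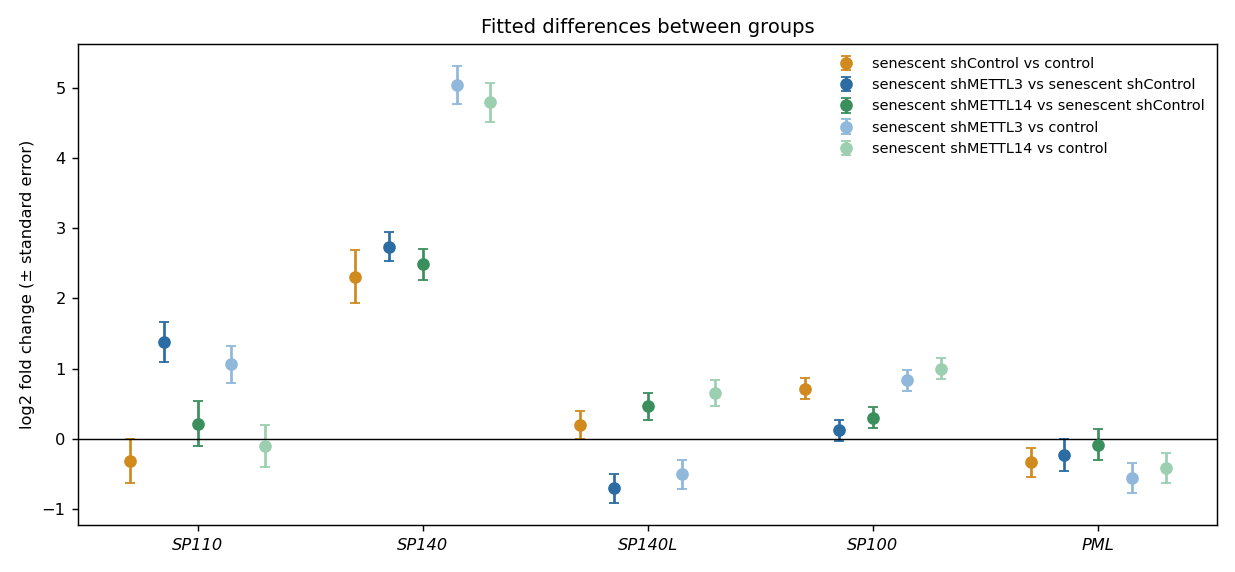
Log2 fold changes of the 5 genes (vertical axis, points with standard errors from the edgeR fit) in 5 comparisons, named in the legend. SP140 lies between 2.31 and 5.05 in all of them, while SP110 and SP140L stand at 1.38 and -0.71 with shMETTL3 against shControl (2.00 and -0.10 when scaled by library size alone); the comparisons share libraries.

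In senescent shControl against control cells, 2 of the 5 genes passed, both higher, where 26.6% of all genes tested passed and 13.3% were higher. With scaling by library size alone, 1 was higher, SP140, and 2 were lower, SP110 and PML. The share of all genes under that scaling is not given, and nothing is read from this split. In shMETTL14 against shControl 1 of 5 passed, SP140, where 21.2% of all genes did and 9.15% were higher. In shMETTL14 against control 3 of 5 passed, all higher, beside 40.2% of all genes, with 19.7% higher and 20.5% lower. The groups did not overlap for 4 members in each of these comparisons, where 66.0%, 64.3% and 72.4% of all genes did not overlap, and nothing is read from this count. The median log2 fold change of the members was 0.20, 0.30 and 0.65, beside -0.03, 0.00 and 0.00 over all genes.

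Compared per kilobase of counted span, which allows levels of different genes to be set side by side, SP140 changed its place within the set. In control cells the order was SP100 at 1.75 ± 0.123 normalized reads per kilobase (SD, n = 2), PML at 1.55 ± 0.112, SP140L at 0.986 ± 0.0045, SP110 at 0.713 ± 0.239 and SP140 at 0.0752 ± 0.0204. The order was the same in shControl cells, where SP100 stood at 2.86 ± 0.304 and SP140, still last, at 0.379 ± 0.058. With shMETTL3, SP140 was second at 2.54 ± 0.443 and overlapped SP100 at 3.11 ± 0.643, followed by SP110 at 1.49 ± 0.287, PML at 1.05 ± 0.176 and SP140L at 0.693 ± 0.138. With shMETTL14, SP140 was again second at 2.14 ± 0.0454, below SP100 at 3.51 ± 0.134, followed by SP140L at 1.55 ± 0.0184, PML at 1.16 ± 0.0119 and SP110 at 0.663 ± 0.109. All other neighbors in these orders did not overlap between their pairs of libraries, which with 2 libraries is a description only.

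The make-up of the family's reads does not depend on how libraries are scaled. SP140 took 1.56% (95% Wilson interval 0.716 to 3.36) and 2.24% (1.19 to 4.21) of the reads of the 4 SP genes in control libraries. It took 5.48% (3.74 to 7.97) and 7.35% (5.28 to 10.1) with shControl. With shMETTL3 its share was 29.3% (25.9 to 32.9) and 29.6% (26.7 to 32.7), and with shMETTL14 23.5% (20.7 to 26.6) and 23.6% (20.6 to 26.7). The intervals of the shMETTL14 libraries lay above those of the shControl libraries. These lay above those of the control libraries except for an overlap between control replicate 2 and shControl replicate 1. The shMETTL3 intervals are a description only, since these libraries served to choose SP140. The family reads behind these shares numbered 385 to 888 per library, and the intervals cover counting error only.

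**Figure D3:**
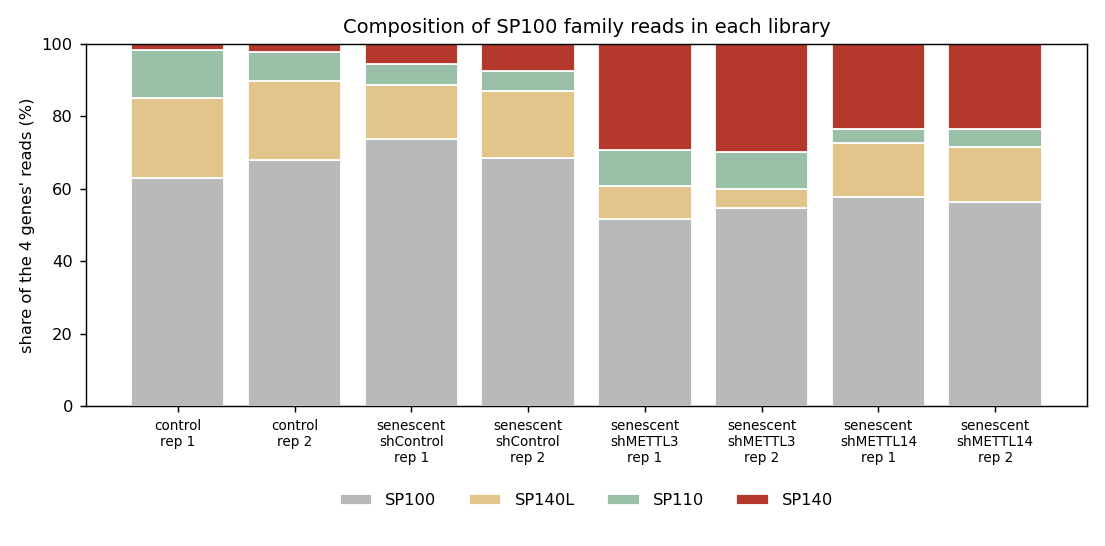
Share of SP100, SP140L, SP110 and SP140 in the reads of these 4 genes (vertical axis, percent, stacked to 100) in each of the 8 libraries (horizontal axis). SP140 grows from 1.56% and 2.24% in control to between 23.5% and 29.6% in the knockdown libraries, and SP140L holds 9.10% and 5.41% with shMETTL3 but 14.9% and 15.1% with shMETTL14.

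The shares of the other genes did not move alike. Because the 4 shares add up to the whole, a larger SP140 share lowers the sum of the others by itself. SP100 held 63.1% and 68.1% of family reads in control, 73.9% and 68.6% in shControl, 51.7% and 54.7% in shMETTL3 and 57.9% and 56.5% in shMETTL14 libraries. SP110 held 13.2% and 7.98%, 5.70% and 5.57%, 9.88% and 10.2%, and 3.72% and 4.85% in the same order. The ratio of SP140 to SP110 reads was 0.118 and 0.281 in control and 0.962 and 1.32 in shControl. It was 2.97 and 2.89 in shMETTL3 and 6.33 and 4.86 in shMETTL14 libraries, so both libraries of each group were above those of the group before. The counted SP110 span begins 5524 bases from the SP110 start next to SP140, and SP110 values may include reads of SP140. The ratio is thus no measure of a shared promoter region. The ratio of SP140 to SP140L reads was 0.0706 and 0.103, 0.368 and 0.398, 3.22 and 5.48, and 1.58 and 1.56. This ratio was highest with shMETTL3, where SP140L was lowest.

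Beyond the cluster on chromosome 2, genes within 250000 bases were compared in the same fit. TRIP12, which encodes a ubiquitin ligase, differed by 0.43 ± 0.13 in senescence (edgeR adjusted p = 0.016), and by 0.11 after METTL14 knockdown (edgeR adjusted p = 0.60). Under scaling by library size alone, TRIP12 was at -0.07 in senescence (edgeR adjusted p = 0.75) and 0.46 after METTL14 knockdown (edgeR adjusted p = 0.022). CAB39, a partner of the kinase LKB1, differed by 0.02 (edgeR adjusted p = 0.96) and 0.38 (edgeR adjusted p = 0.058) in these comparisons, and by 1.06 with shMETTL3 against shControl. Scaled by library size alone, CAB39 was at -0.48 in senescence (edgeR adjusted p = 0.024) and 0.73 after METTL14 knockdown (edgeR adjusted p = 0.0010), so both calls were gained. FBXO36 did not pass in senescence or after METTL14 knockdown, but passed in senescence with library size alone (-1.30, edgeR adjusted p = 0.016). SLC16A14 and LINC01907 had too few reads to be tested. SP140 itself stood at 2.31, 2.49 and 2.74 in the same 3 comparisons. Next to PML, LOXL1, a lysyl oxidase of elastic fibers, fell by 1.19 in senescence (edgeR adjusted p = 0.00017), as did LOXL1-AS1 on the opposite strand (by 0.99, edgeR adjusted p = 0.020, but 0.18 with DESeq2), while STOML1, 50 bases from PML, did not pass. LOXL1 and LOXL1-AS1 overlap at their ends, where reads cannot be told apart.

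**Figure D4:**
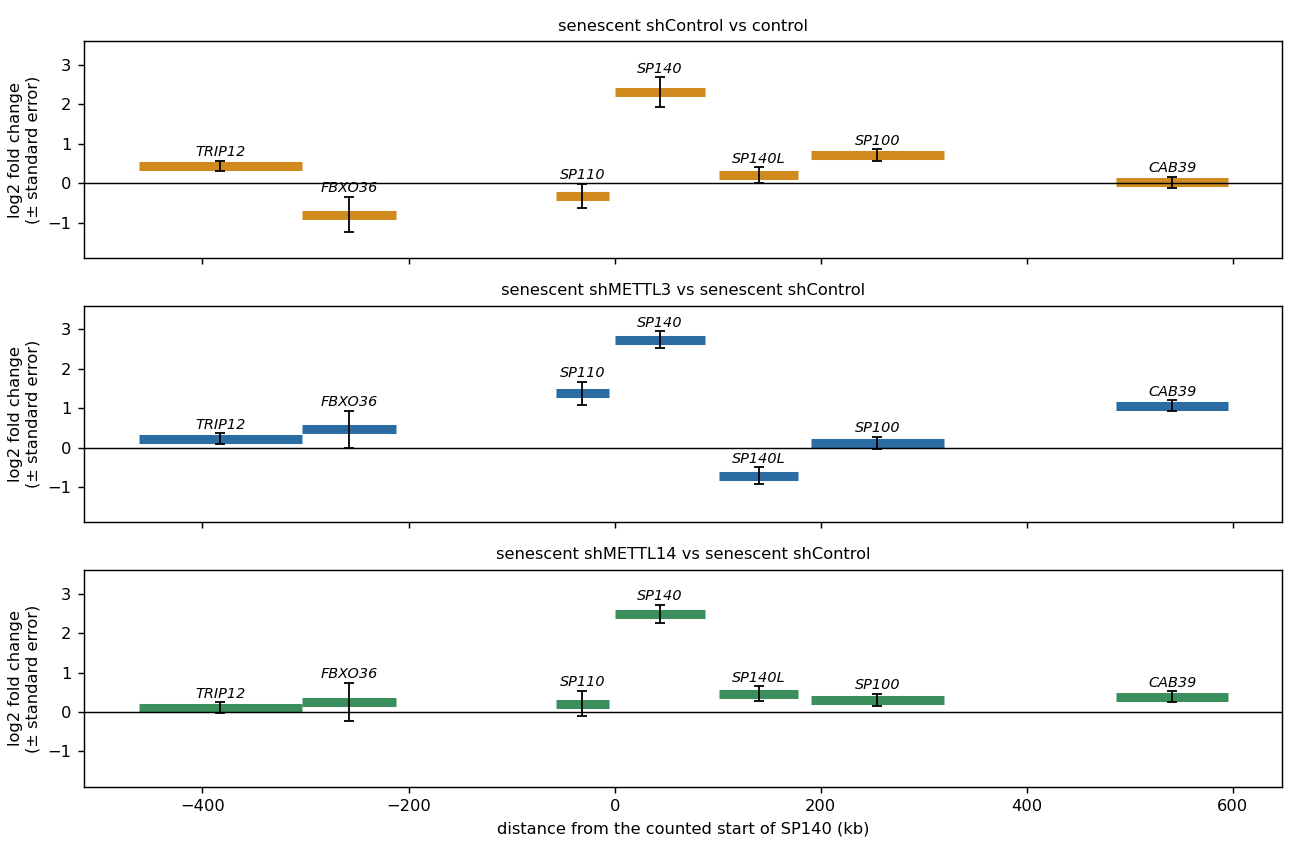
Log2 fold changes (vertical axes) of tested genes around SP140 by distance from its counted start in kb (horizontal axis), in 3 comparisons. Bars span each gene and error bars are standard errors; SP140 is highest in every panel (2.31, 2.74 and 2.49), and its direct neighbors SP110 and SP140L stand at 1.38 and -0.71 with shMETTL3 against shControl.

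Genes whose pattern was most like that of SP140 were sought by Pearson's r of log2 CPM over the 8 libraries among the 6314 tested genes that averaged 50 counts or more. They were RAP1B (r = 0.9912), CNOT1 (0.9877), DLGAP1 (0.9869), PURPL (0.9858) and ASXL2 (0.9858). The points share libraries and groups, and r compares shape, not size. RAP1B, a small GTPase, was 1.34-fold higher in senescence and a further 1.45-fold higher after METTL14 knockdown, against 4.97-fold and 5.61-fold for SP140. PURPL, a long noncoding RNA regulated by p53, came closest in size, with 60 and 67 reads in control, 86 and 86 in shControl, 361 and 509 in shMETTL3 and 370 and 312 in shMETTL14 libraries. For SP100 the closest genes were PDLIM5 (0.9893), UBE2E2 (0.9845), EAF1 (0.9786), HSPA4 (0.9745) and NAB1 (0.9729). PDLIM5, a cytoskeletal adaptor, was 1.89-fold higher in senescence, compared with 1.63-fold for SP100.

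Partners of PML bodies were described from a list of 28 genes, all tested. In senescence 1 rose and 4 fell (17.9%, against 26.6% of all genes), with a median log2 fold change of -0.08. HIPK2, a kinase that phosphorylates p53, fell by 1.18 ± 0.13 (edgeR adjusted p = 6.8e-08), from 2662 and 2681 reads in control to 842 and 961 in shControl libraries. SENP7, a SUMO protease, fell by 0.84 (edgeR adjusted p = 0.0025) and the acetyltransferase CREBBP by 0.73 (edgeR adjusted p = 0.00026). After METTL14 knockdown 3 rose and 2 fell (17.9%, against 21.2%), with a median of 0.00. HIPK2 fell by a further 0.81 (edgeR adjusted p = 6.0e-05) and the chromatin remodeler ATRX by 0.70 (edgeR adjusted p = 0.0015). RNF111, a ubiquitin ligase for SUMO-modified proteins, rose by 0.60 (edgeR adjusted p = 0.012), and MORC3, an ATPase found in PML bodies, rose by 0.50 (edgeR adjusted p = 0.030). In shMETTL14 against control 3 rose and 7 fell (35.7%, against 40.2%), with a median of -0.13. With scaling by library size alone, 14 fell in senescence, 6 rose and 1 fell after METTL14 knockdown, where ATRX no longer passed (-0.35, edgeR adjusted p = 0.12), and 2 rose and 9 fell against control. With DESeq2, 2 fell in senescence and SENP7 did not pass (adjusted p = 0.053). After METTL14 knockdown 2 fell with DESeq2, and neither RNF111 (adjusted p = 0.093) nor MORC3 (adjusted p = 0.20) passed. Against control 2 rose and 3 fell with DESeq2. With the count filter omitted, 1 rose and 2 fell after METTL14 knockdown. In fits of only the groups compared, 15 passed against control. Library size alone moved the median of all genes to -0.53 in senescence and 0.35 after METTL14 knockdown. The share of all genes that passed under each alternative is not given, for this list or those below. Nothing is read from these alternative counts. The counts also rest on few libraries. In senescence the count was 3 in place of 5 without control replicate 1, without control replicate 2 or without shControl replicate 1. After METTL14 knockdown it was 2 in place of 5 without either shControl library, 1 without shMETTL14 replicate 1 and 3 without shMETTL14 replicate 2. Against control it was 5 in place of 10 without control replicate 1, 6 without control replicate 2 and 5 without shMETTL14 replicate 1.

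Relatives that carry a SAND domain or a PHD finger with a bromodomain were taken from a list of 15 genes, of which 14 were tested. In senescence 0 of them passed with edgeR over all libraries, against 26.6% of all genes, and 0 passed with DESeq2. An unadjusted p below 0.05 with edgeR was found for 1, and the median was -0.03. In the edgeR fit of only the groups compared, 1 passed, and was higher. After METTL14 knockdown the chromatin remodeling subunits BAZ1B and BAZ2B fell, by 0.66 (edgeR adjusted p = 0.0019) and 0.51 (edgeR adjusted p = 0.021). These were 2 of 14 (14.3%, against 21.2% of all genes, median -0.03), and the count was 0 without shMETTL14 replicate 1, and 1 without either shControl library. In shMETTL14 against control 1 rose and 2 fell (21.4%, against 40.2%, median -0.05). With upper quartile scaling, with 10 counts in every library and in fits of only the groups compared, 1 rose and 4 fell. The count of 3 was 1 without control replicate 2 or shMETTL14 replicate 1, and 5 without shMETTL14 replicate 2. Scaled by library size alone, 7 fell in senescence, 4 rose after METTL14 knockdown, BAZ1B and BAZ2B not among them, and 4 fell against control. With DESeq2, BAZ2B did not pass after METTL14 knockdown (adjusted p = 0.083), and 1 gene fell against control.

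Since the family is known to respond to interferon, interferon genes were described from 2 lists. Of 20 signaling genes 16 were tested. In senescence 3 rose and 1 fell (25.0%, against 26.6%, median 0.07). SOCS3, a feedback inhibitor of cytokine receptors, rose by 1.77 (edgeR adjusted p = 5.1e-07) and the interferon-gamma receptor chain IFNGR1 by 1.71 (edgeR adjusted p = 0.00020), while the transcription factor STAT2 fell by 0.90 (edgeR adjusted p = 6.4e-05). After METTL14 knockdown 2 rose and 3 fell (31.2%, against 21.2%, median -0.06). STAT2 fell by a further 0.91 (edgeR adjusted p = 0.00060) and the type I receptor chain IFNAR1 by 0.90 (edgeR adjusted p = 0.0011), and the transcription factor IRF1 rose by 0.78 (edgeR adjusted p = 0.046). The count of 5 was 3 without shControl replicate 2. Scaled by library size alone, 6 rose, and STAT2 (-0.56, edgeR adjusted p = 0.054) and IFNAR1 (-0.55, edgeR adjusted p = 0.064) did not pass, while 2 rose and 5 fell in senescence. With DESeq2, 3 fell after METTL14 knockdown and IRF1 did not pass (adjusted p = 0.22). In fits of only the groups compared, 6 rose and 3 fell in senescence. In shMETTL14 against control 6 rose and 2 fell, of 16 (median 0.00), where 40.2% of all genes passed, and 5 rose and 4 fell with library size alone and 4 rose and 1 fell with DESeq2.

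Of 40 interferon-stimulated genes outside the SP family, 24 were tested. In senescence 9 fell and 15 did not pass (37.5%, against 26.6%), with a median of -1.16. Several of the 24 genes passed the count filter mainly through the control libraries, where they were high, so the count and the median lean toward falls. Among the 9 genes with 10 counts in every library, 4 fell in senescence, 1 rose after METTL14 knockdown, and 2 rose and 4 fell in shMETTL14 against control. GBP1, an interferon-inducible GTPase, fell by 2.23 (edgeR adjusted p = 5.3e-05), from 59 and 65 reads in control to 11 and 9 in shControl libraries. GBP2 fell by 1.59 (edgeR adjusted p = 0.0049). After METTL14 knockdown 2 rose (8.33%, against 21.2%, median 0.09), and these were GBP2, by 1.68 (edgeR adjusted p = 0.0048), and IFI6, a mitochondrial protein, by 1.48 (edgeR adjusted p = 0.0016). The other 22 did not pass. In shMETTL14 against control 2 rose and 11 fell (54.2%, against 40.2%, median -0.76). The count of 9 in senescence was 5 without control replicate 1 or shControl replicate 1, the count of 2 was 1 without shMETTL14 replicate 1, and the count of 13 was 8 without control replicate 2 and 7 without shMETTL14 replicate 1. With DESeq2 these counts were 4, 2 and 8, and with library size alone 18, 4 and 13.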

How the data were processed

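The 8 fastGRO-seq libraries of nascent RNA formed 4 groups. Per the file headers, the authors counted reads over whole gene bodies with HOMER on hg19, with overlapping isoforms condensed to 1 row per gene and a strand setting named, and deposited raw counts with replicates kept apart. The submitters' processing notes name STAR and deepTools 3.3, and the aligner's version is not given in the sources used here. The library kit kept strand.

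Groups were tested on counts in R 4.3.3 using edgeR 4.0.16. TMM factors, filterByExpr with a minimum count of 10, and 1 quasi-likelihood fit over all 8 libraries gave each contrast. Genes were called at a Benjamini-Hochberg adjusted p below 0.05 over 12844 genes tested. Standard errors are the log2 fold change divided by the root of F, and 95% intervals use the t quantile at the degrees of freedom of the test. Normalized counts are CPM on the effective library size multiplied by its mean over the libraries. Sequences came from RefSeq promoters on GRCh38.p14, matched to GRCh37, and alignments used Biopython. On simulated data for shMETTL14 against shControl, where 200 genes were given a log2 change of 1, edgeR recovered 136 with 7 false calls among 12431 genes tested, and DESeq2 recovered 70 with 2 among 7878. The simulation gave all genes 1 common spread (coefficient of variation 10.6%) and equal levels in all groups apart from the changed genes. These were drawn above a minimum total count, so the rates are not the error rates of these data.

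The members and lists were chosen with earlier results of these data known. The genes named are the members, METTL3 and METTL14, genes within 250000 bases, the 5 genes most correlated with SP140 and with SP100, and up to 4 called genes with the largest change per list and contrast. Not every gene that this rule covers is reported here. Alternatives were DESeq2 1.42.0, library size alone, upper quartile scaling, omission of the count filter or a floor of 10 counts per library, ribosomal RNA rows left out, separate fits of each pair of groups, a block for the replicate number, a stricter adjusted p of 0.01, a minimum log2 change of 1 in size, and each library left out. Same-numbered libraries did not deviate together, with correlations of -0.04 to 0.10. No scaling to the Drosophila spike-in was made, and a shift common to every gene is invisible in these values. Wilson intervals are at 95%.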

Additional observations from a re-analysis of the deposited data

Results flagged for a closer look

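SP140L differed between the knockdowns in direction. Relative to senescent shControl its log2 fold change was -0.71 with shMETTL3 and 0.46 with shMETTL14, and the latter did not pass (edgeR adjusted p = 0.093). On TMM-scaled counts every library of each knockdown lay on its own side of both shControl libraries. In shMETTL14 against shControl 64.3% of all genes did not overlap, so nothing is read from this. Scaled by library size alone, the values were -0.10 and 0.81, and the shMETTL3 libraries overlapped those of shControl. The difference was not tested, since the shMETTL3 libraries served to choose the set.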

How the results depend on the processing

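The number of members that passed was 2 in senescence, 1 in shMETTL14 against shControl and 3 in shMETTL14 against control, and leaving out single libraries gave 2 to 2, 1 to 1 and 3 to 3. Requiring 10 counts in every library gave 1 in senescence and 0 in shMETTL14 against shControl, because it removed SP140. A minimum log2 change of 1 in size gave 1 in senescence. In shMETTL14 against shControl library size alone gave 3 and a fit of only the groups compared gave 2, the added gene being SP140L (0.45, edgeR adjusted p = 0.046). Without single libraries SP140 stayed at 2.07 to 2.62 in senescence, 2.34 to 2.65 in shMETTL14 against shControl, 2.53 to 2.90 in shMETTL3 against shControl, 4.80 to 5.35 in shMETTL3 against control and -0.40 to -0.04 in shMETTL14 against shMETTL3. Under library size alone SP140 was 3.36 in shMETTL3 against shControl and -0.52 in shMETTL14 against shMETTL3. Directions turned for members that had not passed. Without single libraries SP110 ranged from -0.62 to 0.07 in senescence, positive without control replicate 1. In shMETTL14 against control it ranged from -0.41 to 0.28, with 0.28 without control replicate 1 and 0.07 without shMETTL14 replicate 1. Under library size alone SP140L in senescence was -0.30 and PML in shMETTL14 against shControl 0.26, and SP110 in senescence was -0.81 and passed (edgeR adjusted p = 0.032). With the replicate number as a block the counts of members were again 2, 1 and 3, and SP140 was 2.74, 5.05 and -0.24 in the comparisons that use shMETTL3. The cause of these shifts was not tested. With 6 to 91 reads per library, SP140 in control cells and SP110 limit the precision most.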
